A study of Mus musculus with 6 samples.

Results

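Microglia are the resident macrophages of the brain, and their transcripts were followed here in the ventromedial hypothalamus (VMH), a nucleus that contributes to the control of appetite and energy use. The genes described are 39 microglia and myeloid genes, chosen by name: receptors and secreted proteins of resident microglia, integrin subunits, complement C1q chains, Fc receptor signalling genes, membrane proteins of white blood cells, lysosomal and effector proteins, 2 transcription factors and 2 scavenger receptors of the macrophages that line brain vessels and borders. A gene was analysed where 3 or more of the 6 arrays detected at least 1 of its probes (detection p under 0.05). Of the 39 genes, 31 met this criterion, among 10825 genes in all. The choice of genes was made with earlier results of these data known.

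VMH RNA came from mice with a VMH-specific FoxO1 knockout (KO) and from wild-type mice (WT), both on a mixed strain background and untreated. FoxO1 is a transcription factor held in check by insulin signalling. Each genotype was represented by 3 arrays of an Illumina Mouse-6 BeadChip, and each array carried RNA pooled from 3 animals. The labels do not give the driver of the deletion, nor the age or sex of the animals. Each pool is RNA of whole tissue, in which a change in the number of cells and a change in RNA per cell cannot be told apart.

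Microglia derive from precursors outside the nervous system and depend on the receptor encoded by Csf1r and on the transcription factor PU.1, the product of Spi1. They sense neurons through fractalkine and its receptor Cx3cr1, sense nucleotides through P2ry12 and P2ry13, and clear debris through complement, Fc receptors and the Trem2-Tyrobp receptor complex. PU.1 binds a purine-rich core in the promoters and enhancers of many myeloid genes.

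That core is shown here because it is a sequence feature the choice of genes did not use. In promoter sequences from RefSeq (GRCm38.p6, 250 bases before to 50 bases after the start site), 28 of the 39 genes had an entry. The core GAGGAA, searched on both strands, was present for 17 of these 28 genes (60.7%), against 31.3% of 27025 genes with a promoter entry. The longer GAGGAAG was present for 11 of 28 genes (39.3%), against 15.4% of all. The extensions AGAGGAAG and GAGGAAGT, which contain it, were each present for 4 of 28 genes (14.3%), against 5.2% and 3.7% of all. The median GC content was 48.0% in the members' promoters and 52.7% in all promoters, and its part in these shares was not tested. A match is a match of letters and not evidence of binding. The windows below hold GAGGAAG in 4 genes whose signal read higher in KO (Hpgds, Trem2, C1qc and P2ry13) and in Laptm5. Laptm5 read lower with all arrays (-0.39) but not without KO 1 (0.053). Fcgr3, Fcrls and Mrc1 also held GAGGAAG before the start site, and their windows are not shown. GAGGAAG, or its reverse complement, is in capitals and each sequence reads toward the start site.
Hpgds, chr6:65144743-65144809, minus strand: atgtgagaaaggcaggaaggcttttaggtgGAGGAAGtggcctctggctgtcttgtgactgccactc
P2ry13, chr3:59210894-59210960, minus strand: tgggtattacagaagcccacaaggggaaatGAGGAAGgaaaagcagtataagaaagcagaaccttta
C1qc, chr4:136893072-136893138, minus strand: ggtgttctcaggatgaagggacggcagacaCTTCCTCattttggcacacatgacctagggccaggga
Trem2, chr17:48346330-48346396, plus strand: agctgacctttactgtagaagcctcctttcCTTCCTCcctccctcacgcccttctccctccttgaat
Laptm5, chr4:130913247-130913313, plus strand: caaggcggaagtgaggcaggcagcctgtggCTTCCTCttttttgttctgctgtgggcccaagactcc
In Hpgds, P2ry13, Laptm5 and Trem2 the stretch in capitals begins 49, 48, 39 and 41 bases before the start site, and in C1qc 194 bases before it.

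The tissue label, VMH, was set beside marker genes. All 15 listed VMH markers, Nr5a1 among them, and all 10 genes of resident microglia were detected on enough arrays to be tested. Of 10 neutrophil markers 0 were tested, and 8 were not detected on any array. Of 14 lymphocyte and natural killer cell markers 1 was tested. Absent signal is a weak sign on this array, since 2 of 10 neuron markers, Snap25 and Nefl, were not detected on any array either. KO 1 stood apart from the other arrays, with a mean correlation of 0.954 to them, where these had 0.977 to 0.981, and the main results are therefore given with and without it. Transcripts of the exocrine pancreas were present, with a mean over 23 genes of 11.48, 10.03 and 8.59 log2 on KO 1, KO 2 and KO 3 and of 10.95, 8.03 and 9.69 on WT 1, WT 2 and WT 3. Pancreas signal was highest on KO 1, as were most microglia genes, and the part of the pancreas RNA in their values was not tested. The brighter Foxo1 probe was detected on 3 arrays of each genotype. It read 6.47, 7.29 and 7.25 in KO and 7.62, 7.49 and 7.84 in WT. The difference was -0.65, or -0.38 without KO 1, and in both cases every KO array lay below every WT array. The dimmer probe, detected on 2 arrays of each genotype, went in the opposite direction. It read 5.07, 6.03 and 6.42 in KO and 5.71, 5.04 and 5.76 in WT. Its difference was 0.34 with overlapping arrays, and 0.72 without KO 1, where both remaining KO arrays lay above every WT array. Neither probe passed the adjusted threshold.

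No microglia or myeloid gene passed the test between genotypes. Most nevertheless read higher in KO: 26 of 31 genes had a positive difference, against 52.6% of all genes tested, and the median difference was 0.43 log2, against 0.019 over all genes. Because the genes were chosen with earlier results of these data known, the comparisons with all genes are a description and not a test. The test was limma's moderated test on log2 values with Benjamini-Hochberg adjustment over 20006 probes; it called 1 probe (0.005%), which belongs to none of these genes, and the members' adjusted p lay between 0.582 and 0.954. At an unadjusted p under 0.05, 6 of the 31 genes were higher and 0 lower, against 3.54% and 2.82% of all genes. Every KO array lay above every WT array for 4 genes, which is 12.9% of the members in a background of 8.6%, and below for 0 genes in a background of 6.79%. Of these 4 genes, 3 (Itgad, Cd53 and Hpgds) were detected on fewer than 3 WT arrays and thus entered the test only with the help of the KO arrays, where they read higher, and the same 3 are among the 6 genes at an unadjusted p under 0.05; their counts are therefore a description. With a strict filter (detection p under 0.01 on all 6 arrays), which removes Itgad, Cd53 and Hpgds, 1 gene, P2ry12, had no overlap. No share over all genes is given for that filter, so this count is a description. Without KO 1 the median difference was 0.19, 25 of 31 genes were positive (background 51.7%), 4 were higher and 0 lower at an unadjusted p under 0.05 (background 2.12% and 1.66%), and 4 lay above WT without overlap and 0 below (background 10.7% and 9.03%). Genes read on the same arrays share those arrays' deviations, so the counts are not independent observations.

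**Figure D1:**
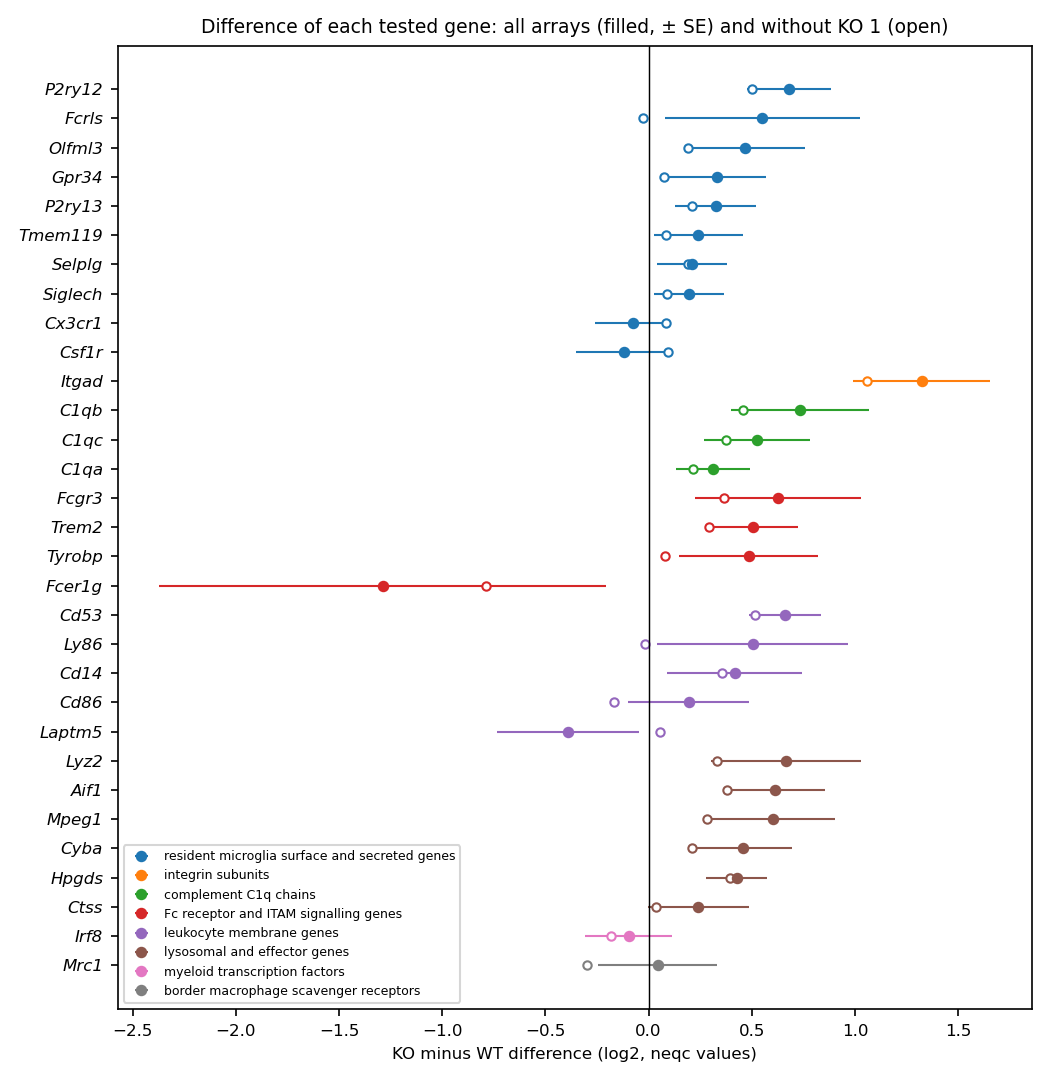
KO minus WT difference in log2 for the 31 tested genes, grouped by role. Filled points with bars are the difference and its SE over all 6 arrays and open points the difference without KO 1; 26 filled points and 25 open points lie above 0, and Fcer1g has the widest bar.

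The genes of resident microglia differed in sign. P2ry12, the ADP receptor that guides microglial processes, read 7.37, 6.77 and 6.89 log2 in KO and 6.28, 6.55 and 6.16 in WT. Every KO array lay above every WT array, with a difference of 0.68 (SE 0.20), or 1.60-fold, at a limma unadjusted p of 0.0093 and an adjusted p of 0.582. The difference was 0.50 without KO 1, and the dimmer P2ry12 probe differed by 0.15 with overlapping arrays.

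Cx3cr1, the fractalkine receptor, read 8.14, 8.59 and 8.64 in KO and 8.37, 8.63 and 8.59 in WT. Apart from KO 1, the lowest, the arrays overlapped closely, and the difference was -0.076 (SE 0.18). Csf1r, the receptor on which microglial survival depends, read 7.59, 8.53 and 7.93 in KO and 8.17, 8.20 and 8.03 in WT, with KO 1 again the lowest and KO 2 the highest, and differed by -0.12 (SE 0.24). Without KO 1 both differences were positive, at 0.083 and 0.095. The dimmer Csf1r probe differed by -0.37 with all arrays and stayed negative, at -0.12, without KO 1. Tmem119, a membrane protein of resident microglia, read 7.92, 7.58 and 7.34 in KO and 7.08, 7.67 and 7.37 in WT, with overlapping arrays, and differed by 0.24 (SE 0.22), or by 0.086 without KO 1.

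The other resident genes all had positive differences that did not pass the test. Gpr34, a lysophospholipid receptor, read 0.33 higher in KO with the brighter probe and 0.69 higher with the dimmer one, and the ADP receptor P2ry13 by 0.32. Olfml3, a secreted protein, differed by 0.47, the lectin Siglech by 0.20 and Selplg, the ligand of P-selectin, by 0.21. Without KO 1 these differences were 0.076 and 0.34 for the Gpr34 probes, 0.21 for P2ry13, 0.19 for Olfml3, 0.091 for Siglech and 0.19 for Selplg, and the median of the 10 resident genes was 0.093, against 0.28 with all arrays. Fcrls, a receptor-like scavenger of mouse microglia, read 8.72, 6.64 and 7.33 in KO and 7.41, 7.03 and 6.59 in WT. Its difference of 0.55 was -0.027 without KO 1, while the dimmer Fcrls probe differed by 0.41 and by 0.20 without KO 1.

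**Figure D2:**
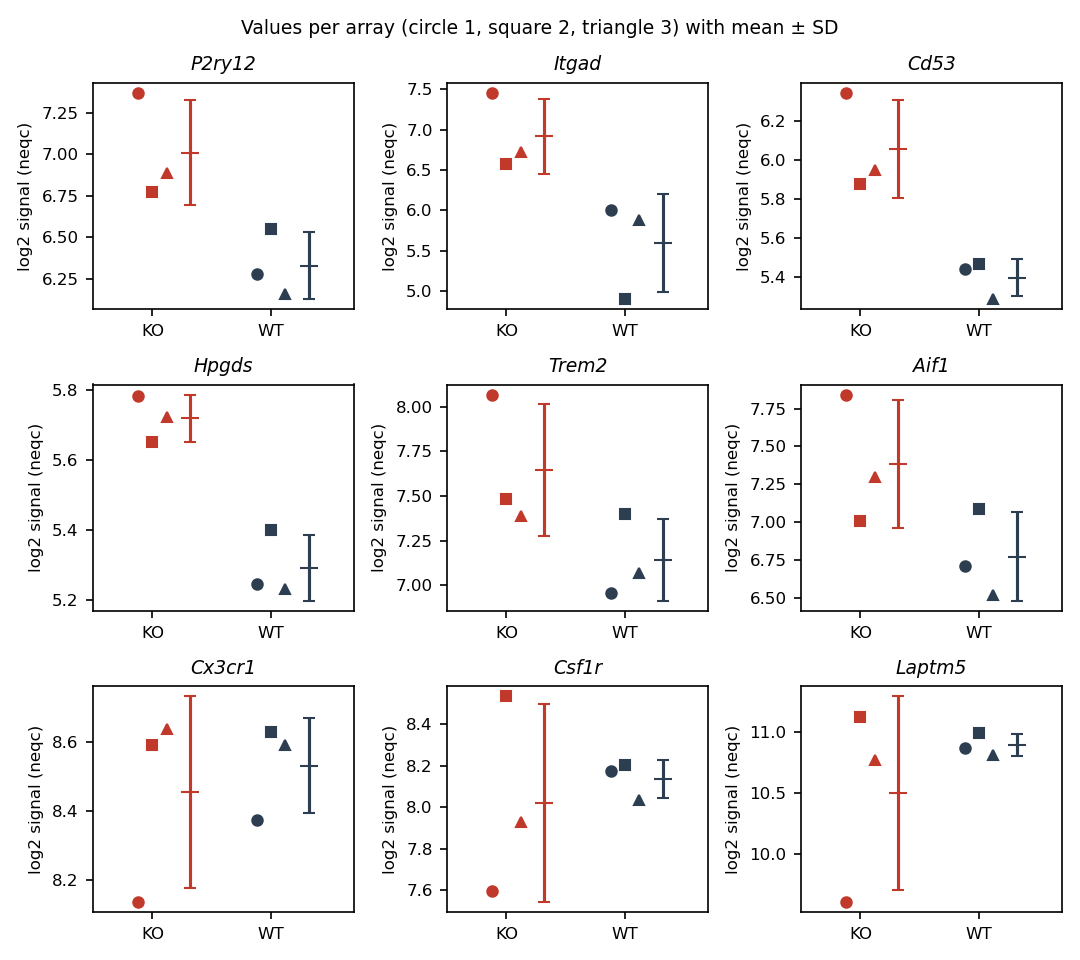
Log2 signal of 9 genes on each array, KO on the left of each panel and WT on the right, with circles, squares and triangles for replicates 1, 2 and 3 and the mean ± SD (n = 3) beside them. The genotypes do not overlap for P2ry12, Itgad, Cd53 and Hpgds, and KO 1 is the lowest array for Cx3cr1, Csf1r and Laptm5.

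Itgad had the largest difference of the 31 genes on the background-corrected scale. Without background correction its difference was 0.51, or 1.43-fold, below that of C1qb (0.59) and smaller in size than that of Fcer1g (-0.61). It encodes an integrin alpha subunit that pairs with the beta subunit of Itgb2 on white blood cells. Its brighter probe read 7.45, 6.58 and 6.72 in KO and 6.01, 4.90 and 5.88 in WT. The genotypes did not overlap, and the difference was 1.32 log2 (SE 0.33), or 2.50-fold, at a limma unadjusted p of 0.0036 and an adjusted p of 0.582. Its second detected probe read 6.94, 5.66 and 6.28 in KO and 5.67, 4.61 and 5.63 in WT, which gives 0.99 (SE 0.37) with KO 2 just below WT 1. Both probes passed detection on 3 arrays of KO and 2 of WT, and 3 further Itgad probes were not detected on any array. Without KO 1 the differences were 1.06 and 0.66. The other integrin members, Itgam, Itgax and the partner subunit Itgb2, were not detected on any array.

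The 3 chains of C1q, the complement component that binds targets and starts the classical cascade, all read higher in KO, without passing the test. C1qb read 9.98, 9.26 and 9.04 in KO and 8.88, 9.17 and 8.03 in WT, a difference of 0.73 (SE 0.33). C1qc read 9.60, 9.29 and 9.01 in KO and 8.91, 9.15 and 8.26 in WT, a difference of 0.52 (SE 0.26). C1qa read 8.03, 7.55 and 7.92 in KO and 7.40, 7.67 and 7.49 in WT, a difference of 0.31 (SE 0.18). KO 1 was the highest array for each chain and WT 2 lay among the KO arrays for each. Without KO 1 the differences were 0.46, 0.37 and 0.21.

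In the Fc receptor and adaptor group, Trem2, a lipid-sensing receptor, read 8.07, 7.48 and 7.39 in KO and 6.96, 7.40 and 7.07 in WT. KO 3 lay just below WT 2, and the difference was 0.50 (SE 0.22) at a limma unadjusted p of 0.0498 and an adjusted p of 0.582. Without KO 1 it was 0.29. Its signalling partner Tyrobp differed by 0.48 and by 0.082 without KO 1. Fcgr3, a low-affinity receptor for immunoglobulin G, read 8.17, 7.02 and 7.74 in KO and 6.14, 7.51 and 7.39 in WT, with WT 1 as the lowest array and a difference of 0.63 (SE 0.40).

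Fcer1g, the signalling chain shared by Fc receptors, fell into 2 separate levels that cut across genotype. It read 4.62, 7.70 and 4.54 in KO and 8.44, 7.67 and 4.60 in WT. KO 2, WT 1 and WT 2 were on the higher level, and KO 1, KO 3 and WT 3 read near background, where the probe was not detected. The gap between the levels was 3.06 log2, and the difference between genotypes, -1.29 (SE 1.08), is that of 1 against 2 pools on the higher level. A gap of at least 1 log2 and at least 2 times the range within either level, not split by genotype, was found in 508 of 20006 tested probes (2.54%), of which 381 (1.9%) had KO 1 alone on the lower level, as Laptm5 did. The split of Fcer1g was shared by 5 probes (0.025%): those of Fcer1g and Apoa2, 2 probes of Lipa and 1 of Entpd4.

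Apoa2, an apolipoprotein gene, is the protein-coding gene next to Fcer1g on chromosome 1 in the RefSeq annotation. Its probe ILMN_1247156 read 4.62, 6.23 and 4.58 in KO and 7.01, 6.24 and 4.59 in WT. Its other probe, ILMN_2775957, read 4.70, 6.18 and 4.62 in KO and 6.90, 6.20 and 4.79 in WT, so that the order of the levels was the same, with WT 1 highest on each. Tomm40l, the gene beyond Apoa2, showed no such levels: its brighter probe lay between 11.10 and 11.72 on all 6 arrays. Lipa and Entpd4 lie on chromosomes 19 and 14. The strain background is labelled as mixed, and its part in these levels was not tested. Lipa, Entpd4, Apoa2 and Tomm40l were chosen after their values were seen.

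**Figure D3:**
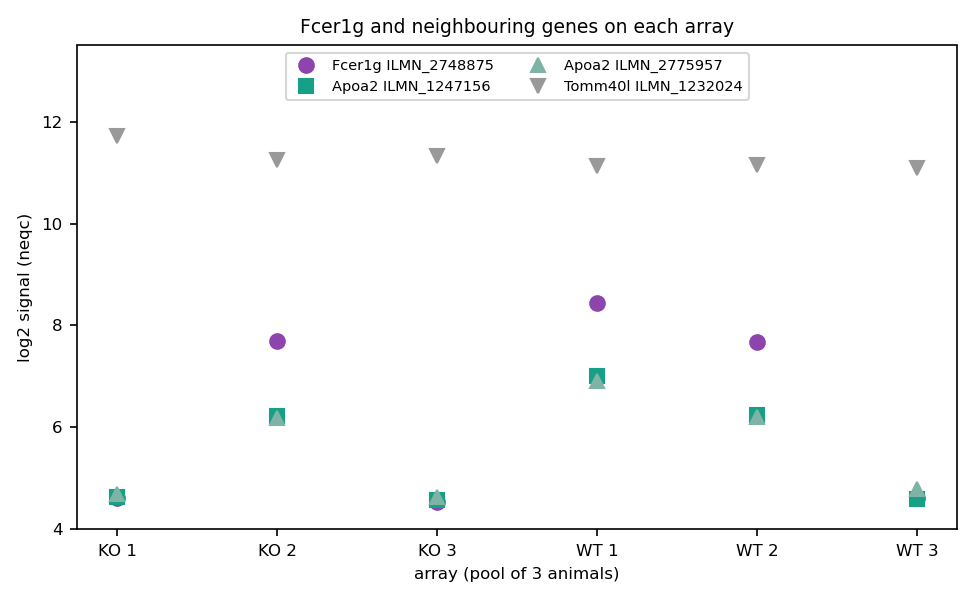
Log2 signal of Fcer1g, of both Apoa2 probes and of the brighter Tomm40l probe on each array, KO arrays left of WT arrays. Fcer1g and Apoa2 are high on KO 2, WT 1 and WT 2 and near background on KO 1, KO 3 and WT 3, while Tomm40l varies by less than 1 log2.

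Among membrane proteins of white blood cells, Cd53, a tetraspanin, read 6.34, 5.88 and 5.95 in KO and 5.44, 5.47 and 5.29 in WT. The genotypes did not overlap, and the difference was 0.66 (SE 0.17), or 1.58-fold, at a limma unadjusted p of 0.00487 and an adjusted p of 0.582. It was 0.52 without KO 1, and the probe was detected on 2 of 3 WT arrays. Laptm5, a lysosomal membrane protein of blood-derived cells, read 9.61, 11.12 and 10.76 in KO and 10.87, 10.99 and 10.81 in WT. KO 1 alone was low, and the difference of -0.39 (SE 0.34) was 0.053 without that array. Ly86, which partners a Toll-like receptor relative, had the opposite form, at 9.02, 7.52 and 7.39 in KO and 7.44, 8.14 and 6.84 in WT. Its difference of 0.50 (SE 0.46) was -0.018 without KO 1. Cd14, a co-receptor for bacterial lipopolysaccharide, and Cd86, a costimulatory ligand, were dim and differed by 0.42 and 0.20, or by 0.36 and -0.17 without KO 1. Ptprc, the common leukocyte antigen, was not detected with any of its 4 probes.

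All 6 tested genes of lysosome and effector function had positive differences. Aif1, a calcium-binding actin regulator used to stain microglia, read 7.84, 7.01 and 7.30 in KO and 6.71, 7.09 and 6.52 in WT. WT 2 lay above KO 2, and the difference was 0.61 (SE 0.25) at a limma unadjusted p of 0.0363 and an adjusted p of 0.582, with 0.30 on the dimmer probe and 0.38 without KO 1. Hpgds, which makes prostaglandin D2, read 5.78, 5.65 and 5.72 in KO and 5.25, 5.40 and 5.23 in WT. The genotypes did not overlap and the KO arrays lay close together, with a difference of 0.43 (SE 0.15; limma unadjusted p = 0.0180, adjusted p = 0.582) that was 0.39 without KO 1. This dim probe passed detection on 3 arrays of KO and 1 of WT.

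Lyz2, the lysozyme of macrophages, differed by 0.67, the pore-forming protein Mpeg1 by 0.60, Cyba, a subunit of the phagocyte oxidase, by 0.46 and the protease Ctss by 0.24. Without KO 1 these differed by 0.33, 0.29, 0.21 and 0.035. Cybb, the catalytic partner of Cyba, was not detected on any array, and Cd68 had no named probe here.

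The transcription factors that define the lineage gave little signal. Irf8 passed detection on 2 arrays of each genotype and read 5.63, 5.52 and 5.22 in KO and 5.36, 5.95 and 5.35 in WT, with overlapping arrays and a difference of -0.097 (SE 0.21). Spi1 passed detection on 1 array of each genotype, at 4.99, 5.61 and 5.21 in KO and 5.00, 5.40 and 5.19 in WT, and was not tested. Of the scavenger receptors of border macrophages, Mrc1 differed by 0.044 (SE 0.29) and by -0.30 without KO 1, and Cd163 was not detected on any array. Of 10 further markers of these macrophages 1 was tested, and 7 were not detected on any array.

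Single arrays stood out across these genes. KO 1 was the highest of the 6 arrays for 24 of 31 genes, against 38% of all genes, and WT 3 the lowest for 15, against 18.4% of all. As a median over the genes, KO 1, KO 2 and KO 3 deviated from the 6-array mean by 0.67, 0.089 and -0.024, and WT 1, WT 2 and WT 3 by -0.26, 0.066 and -0.38. WT 2 lay above the 6-array mean for 23 of 31 genes and higher than both KO 2 and KO 3 for 10. Among the 5 arrays other than KO 1, each of KO 2, KO 3 and WT 2 was highest for 9 genes, against 23.4%, 22% and 17.5% of all genes. There WT 3 was lowest for 15 genes, against 21.1% of all, and highest for 0, against 19.2%. The count of genes without overlap upward, 4 with all arrays, depended on which array was left out, as did the share over all genes, since fewer arrays overlap less easily. It was 8 without KO 2 (19.4% of all genes), 11 without KO 3 (16.8%), 5 without WT 1 (13%), 15 without WT 2 (17.1%) and 4 without WT 3 (10.7%), and it was 4 without KO 1.

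**Figure D4:**
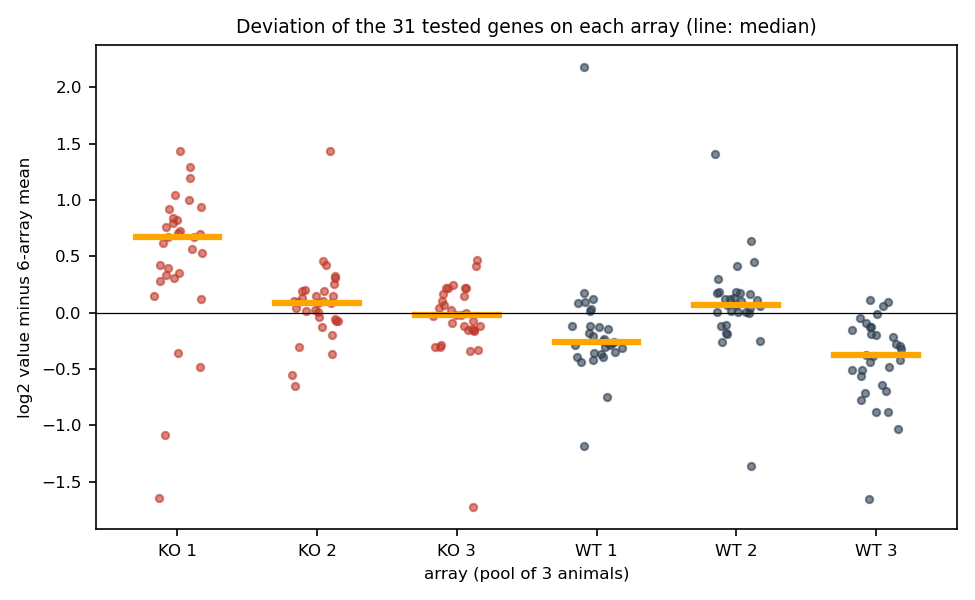
Deviation of each of the 31 tested genes from its mean over the 6 arrays, in log2, with the KO arrays on the left and the median of each array as a line. The medians are 0.67, 0.089 and -0.024 on the KO arrays and -0.26, 0.066 and -0.38 on the WT arrays.

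Where a gene had more than 1 tested probe, its probes had one sign with all arrays: this held for 9 of 9 genes. Without KO 1 the brighter and dimmer probes differed in sign for Csf1r (0.095 and -0.12) and for Fcrls (-0.027 and 0.20). Without background correction the differences shrank, to between 0.12 and 0.51 for P2ry12, Itgad, Cd53, Hpgds, Trem2 and Aif1, and the median over the 31 genes was 0.20.

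As a median, genes listed for microglia outside the 39 differed less than the 31 tested members (0.43, or 0.19 without KO 1). Some of them read far brighter than Cx3cr1 (KO mean 8.46 log2), such as Cst3 (14.84) and Sparc (13.57). The part of other cells of the tissue in their values was not tested, so this median is not a measure of microglia alone. Of 40 such outside genes, listed from general knowledge with earlier results known, 22 were tested, 16 with a positive difference (52.6% of all genes). Their median was 0.090 log2, against 0.28 for the 10 resident genes among the members. Without KO 1 it was 0.082, near the 0.093 of those resident genes. At an unadjusted p under 0.05, 2 were higher and 0 lower, against 3.54% and 2.82% of all genes, and 3 lay above WT without overlap, against 8.6%. Rgs10, a regulator of G protein signalling, read 11.20, 10.68 and 10.27 in KO and 10.00, 10.28 and 10.11 in WT, a difference of 0.59 (SE 0.24). Cd33, a sialic acid-binding receptor, read 5.85, 6.07 and 5.75 in KO and 5.50, 5.68 and 5.30 in WT without overlap, a difference of 0.39 (SE 0.17). Coro1a and Tlr2 also had no overlap, with differences of 0.26 and 0.20, and none of these 4 genes passed the test (limma adjusted p of at least 0.582 for each).

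The ligands that neurons and other cells offer to microglial receptors had a median of -0.089 over 8 tested genes, with 4 positive. Cd47, which restrains phagocytosis, read 10.96, 11.71 and 11.62 in KO and 11.94, 11.81 and 11.76 in WT, without overlap and with a difference of -0.41 (SE 0.22) that was -0.17 without KO 1. Genes of activated microglia were mostly below detection: of 20 listed, 5 were tested, with a median of 0.027, and 11 were not detected on any array. Outside C1q, 3 of 9 complement genes were tested, with differences from -0.43 to 0.45.

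No gene of the lists for other cell types passed the test, and their values are given beside those of the microglia genes. Red cell genes had a positive difference in 5 of 5 tested genes, with a median of 0.62 and 0.67 without KO 1; their median deviation was 0.22, 0.21 and 0.51 on KO 1, KO 2 and KO 3 and -0.16, -0.24 and -0.35 on WT 1, WT 2 and WT 3. Pancreas genes were positive in 23 of 23, with a median of 0.47, but in 2 of 23 without KO 1, with a median of -0.21. Astrocyte markers had a median of 0.15 over 8 genes, oligodendrocyte markers 0.13 over 7, endothelial markers -0.068 over 10 and neuron markers -0.17 over 7. Without KO 1 these medians were 0.14, -0.019, -0.11 and -0.011 in the same order. Their part in the differences of the microglia genes was not tested.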

How the data were processed

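VMH RNA of 3 KO and 3 WT pools was analysed. Per the file headers, the signal table gives an intensity for each probe (linear scale) and the authors' detection p-value. The deposited intensity values had been quantile-normalized, though described as not normalized: sorted arrays differ by at most 0.4. The authors' value table equals the log2 of these signals within 5e-05. The normalization method was not given in the sources used here; Partek Genomics Suite 6.5 is named in the design text.

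Signals were passed through neqc (background estimated from the detection p, normexp, offset 16, quantile, log2) in limma 3.58.1 (R 4.3.3). Of 45281 probes, the 20006 with detection p under 0.05 on 3 or more of 6 arrays were tested with lmFit and eBayes, KO minus WT, 2-sided, without covariates. Symbols came from the platform annotation, updated through Entrez identifiers to RefSeq (GRCm38.p6): 34885 probes had 1 symbol, 18 several and 10378 none. The brightest tested probe stood for a gene. Between 18771 and 20445 probes were detected per array, and the number of arrays limits the precision. All 39 genes are accounted for; values per array are given for genes without overlap or with an unadjusted p under 0.05, for a fixed set of further genes (Cx3cr1, Csf1r, Tmem119, C1qa, Irf8 and others), and for some others after their values were seen. The members and lists were chosen with earlier results of these data known. The test was checked on simulated data with independent noise for each probe and array. That simulation had no outlying array and no deviations shared between genes, so it does not cover these features of the data.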

Additional observations from a re-analysis of the deposited data

How the results depend on the processing

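No probe of the 39 genes passed the adjusted threshold under any alternative run, and 444 of 456 recomputed gene differences kept their direction. With array weights Cx3cr1, Cd86 and Mrc1 changed sign, to 0.046, -0.027 and -0.11. With 1 array left out, differences that changed sign ranged from -0.17 to 0.083 for Cx3cr1, from -0.38 to 0.095 for Csf1r, from -0.70 to 0.053 for Laptm5, from -0.027 to 1.01 for Fcrls, from -0.018 to 0.84 for Ly86, from -0.17 to 0.43 for Cd86 and from -0.30 to 0.33 for Mrc1, each of them turning without KO 1, and from -0.20 to 0.10 for Irf8, which turned without KO 3 and without WT 2; the cause was not tested. The single called probe of the table was lost, leaving 0, without background correction, with an offset of 50, in the authors' value table, without a filter, with the strict filter, with an intensity trend and with the replicate block; leaving out 1 array gave 0 to 1. Genes higher at an unadjusted p under 0.05 numbered 3, against 6, without background correction, in the authors' value table and with the strict filter, and 3 to 10 with 1 array left out; lower genes numbered 0 to 1. Genes without overlap upward numbered 1 with the strict filter and 4 to 15 with 1 array left out, and downward 0 to 2. The strict filter removes Itgad, Cd53 and Hpgds, which were not detected on every array. Over all genes, the share without overlap upward was 8.6% with all arrays and 10.7% to 19.4% with 1 left out. For the strict filter no such share is given here. For the counts at an unadjusted p and without overlap downward it is given above only for all arrays and without KO 1. These counts are therefore a description of the runs and cannot be compared between them. The median of the members ranged from 0.19 to 0.56 with 1 array left out, and was 0.20 without background correction, 0.29 with an offset of 50, 0.42 with median scaling, 0.32 without a filter, 0.46 with the strict filter, 0.30 with array weights and 0.43 with the mean over probes. The labels state no pairing of the pools by replicate number, and whether same-numbered pools share a batch was not tested. Same-numbered deviations correlated at 0.15, 0.0037 and 0.40, and 5 of 6 arrays correlated best with their own number. KO 2 hardly differed between numbers, at -0.0016 with WT 1, 0.0037 with WT 2 and -0.0024 with WT 3. The deviations were taken from the mean of each genotype, so these matches are not independent of each other. With the replicate block 9 genes were higher and 0 lower at an unadjusted p under 0.05. Without a share over all genes for that run, this count cannot be compared with the 6 of the main run. Dim probes (Hpgds, Cd14, Lyz2, Irf8 and Itgad) limit what signal over background can show.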
